A study of Mus musculus with 6 samples.

Results

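The integrated stress response was read here through 10 genes: the transcription factor gene Atf4, its partner Ddit3, and 8 genes commonly used as its targets or as signs of mitochondrial stress (Asns, Trib3, Chac1, Fgf21, Gdf15, Psat1, Phgdh and Mthfd2). The genes were chosen by name, and each was read from the probe set with the highest mean over the 6 arrays among those that the platform table gives 1 symbol. That rule found 19 probe sets for 9 of the 10 genes, out of 18193 genes with such a probe set. Gdf15 had none in that table and was not analysed here. Of the 9, 8 passed a filter on dim probe sets, and Fgf21 did not.

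The samples were hearts of 3 wild-type (WT) mice and of 3 mice that the labels call null (KO) for ERRα. This protein, the estrogen-related receptor alpha, is a nuclear receptor without a known hormone. It controls genes of mitochondrial energy use and is encoded by Esrra. All 6 mice were male and under basal conditions, with no stressor named. The labels give 5 of them as C57BL/6J, aged 2 to 3 months; for WT 1 only the sex and a heart as the source are stated. The design gives the mice as null for ERRα; how the allele was made, and any driver, were not stated in the labels used here.

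Cells that meet unfolded protein, missing amino acids, missing haem or failing mitochondria phosphorylate the translation factor eIF2α, which slows protein synthesis overall while favouring translation of the Atf4 messenger. ATF4, a leucine zipper factor, then drives genes for amino acid synthesis, amino acid transport and tRNA charging, and with CHOP, the product of Ddit3, genes of cell death and feedback. In heart and skeletal muscle with defects of the respiratory chain this program is known for its serine and folate enzymes and for the secreted hormones FGF21 and GDF15. Because ATF4 is controlled largely at translation, its messenger alone does not report its activity.

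The arrays had median signals of 12.4 to 16, with WT 1 the highest, and were compared without further scaling. Leaving out WT 1 moved the median log2 difference of all genes from -0.028 to 0.058. Esrra, the check of the labels, gave signals of 368.1, 394.4 and 349.1 among WT hearts against 180.1, 24 and 18 among KO 1 to 3. The library labelled KO 1 lay below every WT heart, at 48.6% of the WT mean, against 6.48% and 4.86% in KO 2 and KO 3. So high a signal goes against the null label, and directions below are drawn with KO 1 included unless stated. All 9 cardiomyocyte markers (among them Myh6 and Tnnt2) had signals of 241.4 or more in every heart. In whole-heart RNA, fewer cells of a type and less RNA per cell cannot be told apart.

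None of the 8 genes above the filter passed the test between the libraries labelled KO and WT (a two-sided limma fit to log2 of the signal after adding 16, with p adjusted over all genes and a threshold of 0.05). Of the 12946 genes tested 2.97% passed, 1.78% as higher and 1.18% as lower. Ddit3, Asns and Atf4 had the largest positive differences, at 0.48, 0.37 and 0.36 on that log2 scale, and Chac1 had the only negative one, at -0.63. These 4 had an unadjusted p under 0.05, as did 12.5% of all genes. The groups did not overlap for Ddit3 and Asns, with every library labelled KO above every WT heart, which held for 6.81% of all genes, and 9.41% had every library labelled KO below. Without KO 1, 1 of the 8 genes passed, Chac1, as lower (limma adjusted p = 0.00909). Of all genes 3.93% passed there, in either direction. The fit without KO 1 took its variance from the trend over all genes and gave a gene's own spread no weight.

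**Figure D1:**
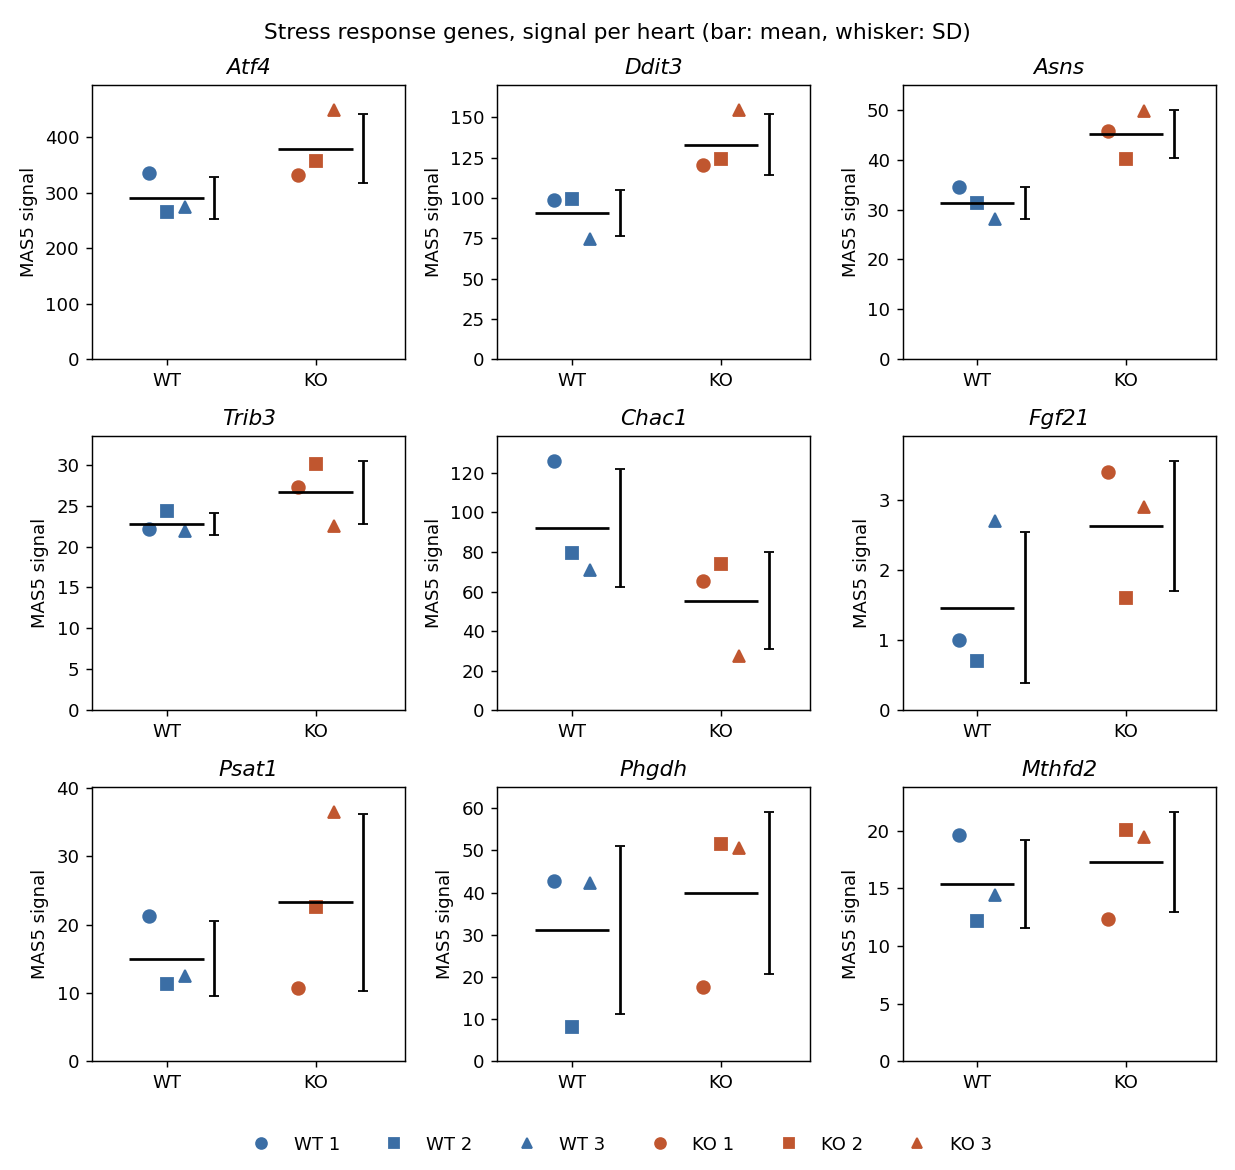
MAS5 signal (linear scale, from 0) of the 9 measured genes in each of the 3 WT hearts (blue) and 3 libraries labelled KO (orange); bars are means and whiskers the SD over 3 hearts. Ddit3 and Asns separate by group, Chac1 is highest in WT 1 at 126.1 and lowest in KO 3 at 27.3, and Fgf21 stays at 3.4 or less throughout.

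Atf4, the factor at the head of the program, gave signals of 334.8, 264.6 and 273.7 among WT 1 to 3 against 332.5, 357.4 and 449.5 among KO 1 to 3. KO 3 was the highest heart, and KO 1 lay just under WT 1, so the groups overlapped. That overlap rested on 332.5 against 334.8 without scaling, and WT 1 had the brightest array. Under quantile, median and loess scaling 3 of the 8 genes had every library labelled KO above WT. The share of all genes that did so under these scalings was not counted. Under them, in that order, the limma adjusted p of Atf4 was 0.0558, 0.139 and 0.0558. The means were 291 ± 38.2 and 380 ± 61.6 (SD, n = 3 each). The difference was 0.36 on the log2 scale (SE 0.164, 95% interval 0.033 to 0.691, limma adjusted p = 0.323). Both other Atf4 probe sets were dimmer and gave differences of 0.093 and -0.25. Without KO 1 the groups of Atf4 no longer overlapped, at a difference of 0.45 (limma adjusted p = 0.263).

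Ddit3 encodes CHOP, a C/EBP-family factor that ATF4 induces and that acts in apoptosis after prolonged stress. Its signal was 98.4, 99.4 and 74.4 among WT hearts against 120.1, 124.1 and 154.6 among KO 1 to 3. Every library labelled KO, KO 1 included, lay above every WT heart. The means were 90.7 ± 14.2 and 133 ± 18.9, a log2 difference of 0.48 (SE 0.173, 95% interval 0.13 to 0.83, limma adjusted p = 0.14). Of 20 alternative settings Ddit3 passed in 1, the fit with array weights (0.52, limma adjusted p = 0.0451). A dimmer Ddit3 probe set was at 0.11.

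Trib3 encodes a pseudokinase that is induced by ATF4 and CHOP and restrains both. Its signal was 22.1, 24.3 and 21.9 among WT hearts against 27.3, 30.1 and 22.5 among KO 1 to 3. KO 1 and KO 2 lay above all WT hearts and KO 3 among them, for a log2 difference of 0.13 (SE 0.194, 95% interval -0.26 to 0.52). The second Trib3 probe set ran from 6.5 to 37.9 with no order by group. Of the other tribbles genes, which share the pseudokinase fold, Trib1 was at 0.59 (SE 0.211, limma adjusted p = 0.135) and Trib2 at -0.44 (SE 0.177, limma adjusted p = 0.221). Trib1 did not overlap between the groups, at 13.2, 8.2 and 10.7 among WT hearts against 29.9, 24.1 and 19.3 among KO 1 to 3. Trib1 passed with array weights (limma adjusted p = 0.0452).

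Asns, which makes asparagine from aspartate and glutamine, and Chac1, which degrades glutathione, are both known ATF4 targets and lay on opposite sides of 0 here. ATF4 with C/EBP partners binds a composite element whose core can be written TGATGNAA. Among RefSeq promoter windows of GRCm38.p6, taken from 250 bases before to 50 after a start site, 3.97% of 32851 held that core on either strand. The 10 genes had 12 such windows, and Asns, Trib3, Chac1 and Fgf21 each held a match. The core of the ERR response element, AAGGTCA, was in 4.72% of all windows and in 0 of these 12. The 4 matches follow on the strand that carries the core, which is in capitals, because they set side by side the letters shared by these genes; none of the 4 passed the test.

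Asns (chr6:7693214-7693243, minus strand): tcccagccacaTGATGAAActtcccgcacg

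Trib3 (chr2:152344028-152344057, plus strand): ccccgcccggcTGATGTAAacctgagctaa

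Chac1 (chr2:119351038-119351067, minus strand): cctggcaggagTGATGCAAcggcagggaag

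Fgf21 (chr7:45615611-45615640, plus strand): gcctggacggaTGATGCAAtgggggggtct

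Chac1 and Fgf21 carried the stricter form TGATGCAA, which 0.89% of all windows held. The first base of the match lay 23 bases before the start site in Asns, 139 before it in Fgf21 and 193 before it in Chac1, and on base 15 of the transcript in Trib3. The 250 bases before each start site of Asns and Chac1 are printed whole, 5′ to 3′ in the direction of the gene, with the match in capitals on whichever strand it was found.

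Asns (chr6:7693210-7693459, minus strand): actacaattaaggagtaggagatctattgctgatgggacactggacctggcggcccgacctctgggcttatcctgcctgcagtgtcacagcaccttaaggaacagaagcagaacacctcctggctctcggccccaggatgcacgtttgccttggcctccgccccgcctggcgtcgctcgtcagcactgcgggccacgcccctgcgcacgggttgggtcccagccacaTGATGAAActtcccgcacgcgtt

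Chac1 (chr2:119350992-119351241, plus strand): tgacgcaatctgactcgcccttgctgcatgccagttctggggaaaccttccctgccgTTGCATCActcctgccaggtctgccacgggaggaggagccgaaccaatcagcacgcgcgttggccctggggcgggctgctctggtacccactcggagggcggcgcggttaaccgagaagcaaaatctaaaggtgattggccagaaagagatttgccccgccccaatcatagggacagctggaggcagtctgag

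The Asns signal was 34.5, 31.3 and 28.1 among WT hearts against 45.8, 40.1 and 49.7 among KO 1 to 3. All libraries labelled KO lay above all WT hearts, with a narrow spread in each group. The means were 31.3 ± 3.20 and 45.2 ± 4.83, a log2 difference of 0.37 (SE 0.180, 95% interval 0.0082 to 0.734, limma adjusted p = 0.38). On signals this dim the added 16 understates a ratio, and the ratio of the means was 1.44. A dimmer probe set with shared probes was at -0.071.

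The Chac1 signal was 126.1, 79.5 and 70.9 among WT hearts against 65.2, 73.8 and 27.3 among KO 1 to 3. WT 1 was the highest heart and KO 3 the lowest by a wide margin, and KO 2 lay above WT 3. The means were 92.2 ± 29.7 and 55.4 ± 24.7, a log2 difference of -0.63 (SE 0.203, 95% interval -1.04 to -0.23, limma adjusted p = 0.0815). Chac1 was lower in all 20 settings and passed in 7 of them, with differences from -0.83 to -0.31 and adjusted p from 0.00775 to 0.78. Most of these passes came from fits that gave a gene's own spread little or no weight beside the variance shared between genes. Where its own spread weighed more, Chac1 did not pass. The limma adjusted p was 0.217 with quantile scaling, 0.22 with loess scaling and 0.46 with no filter. Among the fits that left out a single heart it passed without WT 2 (limma adjusted p = 0.0313), WT 3 (0.0236), KO 1 (0.00909) or KO 2 (0.00775), and did not without WT 1 or KO 3. KO 3 held the lowest Chac1 signal and the highest Atf4 signal.

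Phgdh and Psat1 encode the first enzymes of serine synthesis from glycolysis. Phgdh gave 42.8, 8.2 and 42.3 among WT hearts against 17.7, 51.4 and 50.6 among KO 1 to 3, so WT 2 and KO 1 were low and the other hearts of both groups close together (log2 difference 0.29, SE 0.239, 95% interval -0.19 to 0.77). All its probe sets carry a suffix for probes shared between transcripts, and its sign turned without WT 2 (-0.14). The dimmer Phgdh probe sets were at 0.265, 0.43 and 0.65. The last of them, below the filter, gave 1.1, 6.3 and 1.8 among WT hearts against 10.1, 17 and 14.6 among KO 1 to 3, without overlap. It did not pass in a fit over all probe sets (limma adjusted p = 0.283). In the fit without the filter, on the brightest probe sets, 14.5% of all genes did not overlap in either direction. Its WT signals are too low to tell from background, with detection calls not used here. Psat1 gave 21.3, 11.3 and 12.4 among WT hearts against 10.7, 22.5 and 36.5 among KO 1 to 3, with KO 3 the highest and KO 1 the lowest heart (log2 difference 0.30, SE 0.224, 95% interval -0.15 to 0.75). The dimmer Psat1 probe set was at 0.34, with overlap. Without KO 1 neither Phgdh nor Psat1 overlapped between the groups on its brightest probe set, with limma adjusted p of 0.0819 for Phgdh and 0.246 for Psat1. In that comparison 5 of the 8 genes (Atf4, Ddit3, Asns, Phgdh and Psat1) had both remaining libraries labelled KO above all WT hearts, as did 11.6% of all genes.

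Mthfd2, a mitochondrial folate enzyme that is low in most adult tissue and strongly induced in mitochondrial myopathy, gave 19.6, 12.2 and 14.4 among WT hearts against 12.3, 20.1 and 19.5 among KO 1 to 3. The groups covered the same range (log2 difference 0.083, SE 0.214, 95% interval -0.35 to 0.51). Its other probe set was at -0.28, and the mean of both was at -0.097. Fgf21, the fasting and stress hormone, gave 1, 0.7 and 2.7 among WT hearts against 3.4, 1.6 and 2.9 among KO 1 to 3. With detection calls not used here, signals this low cannot be told from background. In a fit without the filter over 18193 genes, of which 0.363% passed, Fgf21 was at 0.094 (SE 0.122, 95% interval -0.17 to 0.36, limma adjusted p = 0.868).

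By heart, KO 3 held the highest signal for 4 of the 8 genes above the filter (Atf4, Ddit3, Asns and Psat1), KO 2 for 3 (Trib3, Phgdh and Mthfd2) and WT 1 for 1 (Chac1). The lowest signal fell in WT 2 or WT 3 for 3 genes each. The median difference over these 8 genes was 0.29, against -0.028 over all genes tested, and 7 of 8 were positive, against 45.0% of all genes. Without KO 3 the median was 0.17 and 0 of the 8 had an unadjusted p under 0.05, and without WT 2 it was 0.19. With the mean of each gene's probe sets it was 0.19, with 6 of 8 positive and 0 of 8 wholly above WT. That count of positive differences describes the genes that passed the filter, with Ddit3 at the top and Chac1 at the bottom.

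**Figure D2:**
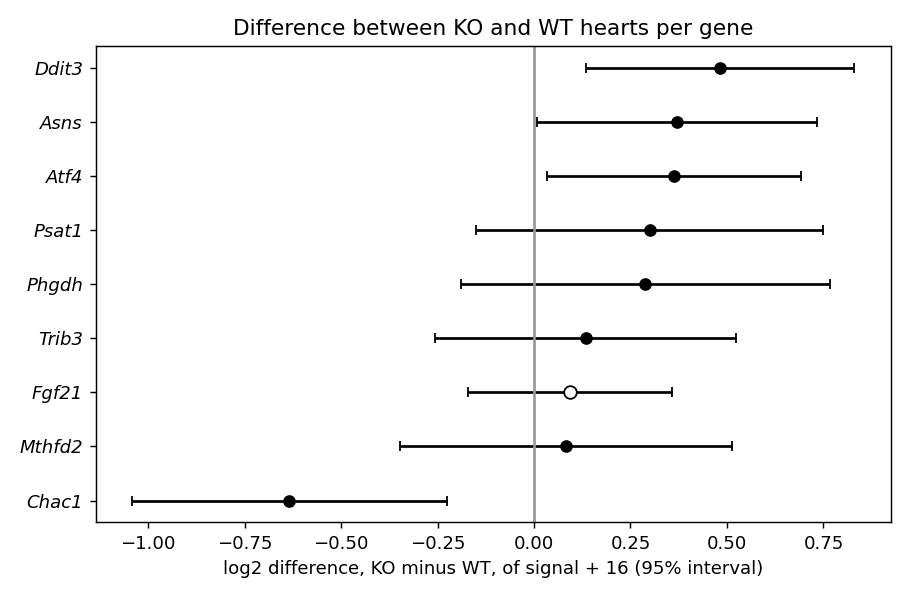
Log2 difference of signal plus 16, KO minus WT, with the 95% interval from the moderated fit (x axis) for each gene (y axis); filled points come from the filtered fit and the open point, Fgf21, from the fit without a filter. The intervals of Ddit3, Asns, Atf4 and Chac1 leave out 0 before adjustment over all genes, and those of the other 5 genes include it.

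No gene for the steps before ATF4 passed the test. The steps themselves, such as eIF2α phosphorylation, act on proteins and were not measured. Eif2s1, the eIF2α gene, had no probe set with 1 symbol. The list held 16 genes for the eIF2α kinases, the phosphatase subunits, the exchange factor eIF2B and the mitochondrial relay. Of these 0 rose, 0 fell and 16 did not pass (median log2 difference -0.098). Over all genes tested 1.78% rose and 1.18% fell, the shares to set beside the counts of this and the following lists. The kinases were at -0.047 for the haem- and mitochondria-linked Eif2ak1, -0.28 for the interferon-induced Eif2ak2, -0.025 for the endoplasmic reticulum kinase Eif2ak3 (PERK) and 0.24 for the amino acid sensor Eif2ak4 (GCN2). Their limma adjusted p ran no lower than 0.657. Ppp1r15a, the stress-induced phosphatase subunit GADD34 and itself an ATF4 target, was at 0.20 (SE 0.172). The smallest p of the list were those of Eif2b5, a subunit of eIF2B (-0.36, limma adjusted p = 0.397), and of the protease gene Oma1 (-0.29, limma adjusted p = 0.487). Oma1, which cuts the relay protein DELE1 when mitochondria lose membrane potential, gave 355.9, 312.5 and 302 among WT hearts against 252.5, 280.3 and 253 among KO 1 to 3, without overlap.

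Of 16 partner and feedback genes of ATF4 2 rose, Ddit4 and Cebpa, against 1.78% of all genes. The other 14 did not pass, and the median of the list was 0.26. The difference was positive for 14 of the 16, against 45.0% of all genes, and 6 had every library labelled KO above every WT heart, against 6.81%. Ddit4 encodes REDD1, a stress-induced inhibitor of mTORC1, and gave 138.8, 98.2 and 68.9 among WT hearts against 215.7, 135.2 and 268.1 among KO 1 to 3. KO 2 lay just under WT 1, and the other libraries labelled KO above all WT hearts (log2 difference 0.91, SE 0.196, limma adjusted p = 0.00272). Cebpa, a C/EBP factor of adipocytes, liver and myeloid cells, gave 26.6, 17.8 and 29.3 among WT hearts against 41.5, 58.5 and 69.8 among KO 1 to 3, without overlap (0.83, SE 0.189, limma adjusted p = 0.00478). Atf5, a related factor tied to the mitochondrial unfolded protein response, was at 0.081 (SE 0.182).

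In serine, one-carbon and proline synthesis outside the genes already described, 1 of 13 genes rose, 0 fell and 12 did not pass (median 0.022). Of all genes 1.78% rose. Aldh1l2, the mitochondrial enzyme that oxidises formyl-tetrahydrofolate, is a known ATF4 target. Its signal was 25.6, 34.1 and 24.9 among WT hearts against 63.6, 104 and 101.6 among KO 1 to 3, so every library labelled KO lay far above every WT heart. The log2 difference was 1.24 (SE 0.183, limma adjusted p = 4.74e-06), and Aldh1l2 passed in all 20 settings. Other genes of the folate pathway did not pass. Its cytosolic relative Aldh1l1 gave 19.3, 25.5 and 23.8 among WT hearts against 29.6, 63.7 and 40 among KO 1 to 3, without overlap (0.60, limma adjusted p = 0.0904). The trifunctional cytosolic enzyme gene Mthfd1 was at -0.46 (limma adjusted p = 0.176), the Mthfd2 relative Mthfd2l at -0.36 (0.406), the serine hydroxymethyltransferase Shmt2 at -0.0031 (0.997), and Psph, the last enzyme of serine synthesis, at 0.30 (0.561).

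**Figure D3:**
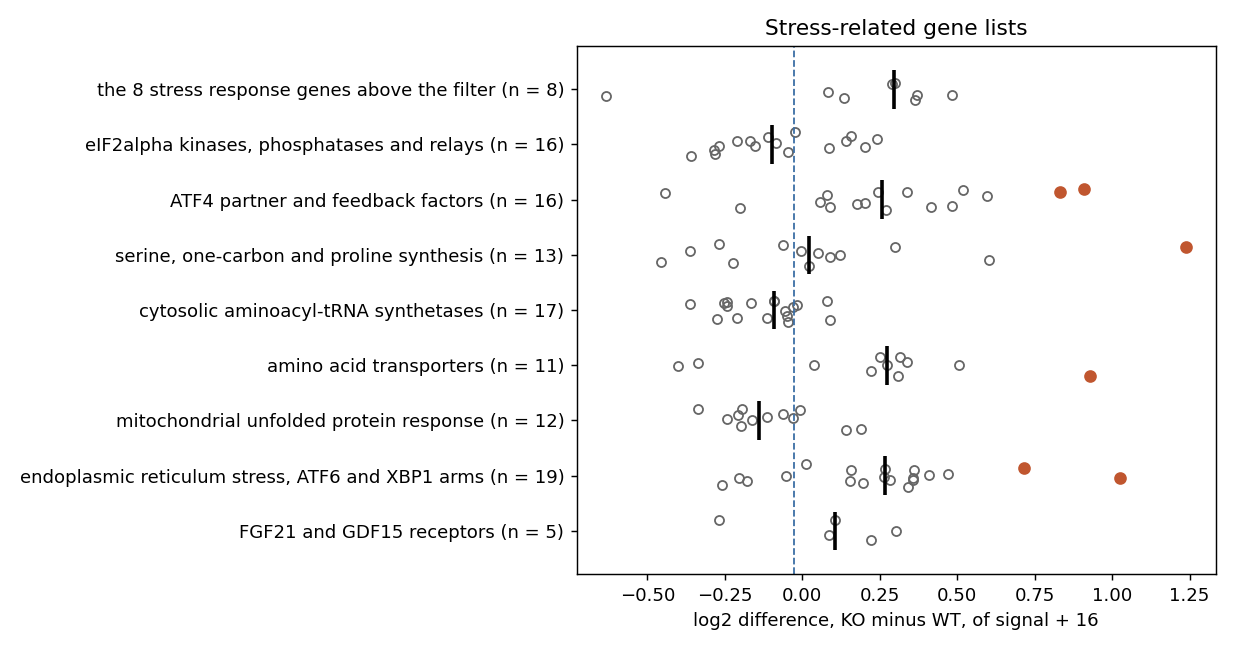
Log2 difference of signal plus 16, KO minus WT (x axis), for each tested gene of the 8 genes above the filter and of 8 related lists (y axis, number tested in brackets); filled points passed the test, black bars are list medians and the dashed line is the median of all genes, -0.028. Filled points stand in 4 lists and are all to the right, and the eIF2α, tRNA synthetase and mitochondrial lists have their medians left of the line.

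The cytosolic aminoacyl-tRNA synthetases, among the most regular ATF4 targets, had 0 of 17 genes past the test. Only 2 of the 17 were positive, against 45.0% of all genes, and the median was -0.092. WT 1, the brightest of these unscaled arrays, was the highest heart for most of the 17. Aars gave 279.8, 208.9 and 218.9 among WT hearts against 205.9, 170.4 and 212.2 among KO 1 to 3. Eprs gave 297.4, 215.8 and 226.5 against 221.3, 225.3 and 263.4. The part of WT 1 in the signs of this list was not tested. Mars1, for methionine, had the smallest p, at 220.6, 178.2 and 191.7 among WT hearts against 143, 152.9 and 151.1 among KO 1 to 3 (-0.36, limma adjusted p = 0.336). Sars, for serine, was at -0.28 (limma adjusted p = 0.558). Both lay below WT in every library labelled KO, and neither passed.

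Of 11 amino acid transporters 1 rose, against 1.78% of all genes, 0 fell and 10 did not pass (median 0.27). The difference was positive for 9 of the 11, against 45.0% of all genes, and 4 had every library labelled KO above every WT heart, against 6.81%. Slc7a7, the light chain of a cationic amino acid exchanger, gave 23.5, 23.9 and 31.3 among WT hearts against 57.7, 82.4 and 55 among KO 1 to 3, without overlap (0.93, SE 0.183, limma adjusted p = 0.000778). Its second probe set, which carries a shared-probe suffix, was at 0.25. Slc7a11, the cystine carrier that ATF4 induces, was below the filter, with 16.7 or less in every heart.

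The mitochondrial unfolded protein response, with its chaperones and matrix proteases, had 0 of 12 genes past the test and a median of -0.14. WT 1 was again the highest heart for most of these genes. Hspd1, the chaperonin HSP60, gave 2211.6, 1746.4 and 1888.3 among WT hearts against 1858.5, 1647.7 and 1541.3 among KO 1 to 3, with overlap (-0.21, limma adjusted p = 0.563). Htra2, an intermembrane protease, was at -0.34 (limma adjusted p = 0.445).

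Of 19 genes of the endoplasmic reticulum arms run by ATF6 and XBP1, 2 rose, against 1.78% of all genes. In this list 0 fell and 17 did not pass, with a median of 0.27. Manf, a secreted factor of the reticulum lumen induced by unfolded protein, gave 312.7, 229.2 and 258 among WT hearts against 433.8, 559.3 and 701.5 among KO 1 to 3. No heart overlapped, and the difference was 1.02 (SE 0.168, limma adjusted p = 4.05e-05), past the test in all 20 settings of the fit with 1 probe set a gene. Dnajc3, also called p58IPK, is a cochaperone that restrains PERK. It gave 193.3, 153.3 and 152 among WT hearts against 269.8, 277.8 and 298.2 among KO 1 to 3 (0.72, SE 0.166, limma adjusted p = 0.0059), while its 4 dimmer probe sets were at 0.28 to 0.55. The master chaperone Hspa5 (BiP) was added after its values were seen. It gave 1512.7, 1390 and 1420.8 among WT hearts against 1957.4, 1703.2 and 1898.4 among KO 1 to 3, without overlap, at 0.36 (limma adjusted p = 0.135). In this list 8 of 19 genes had all libraries labelled KO above all WT hearts, against 6.81% of all genes.

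**Figure D4:**
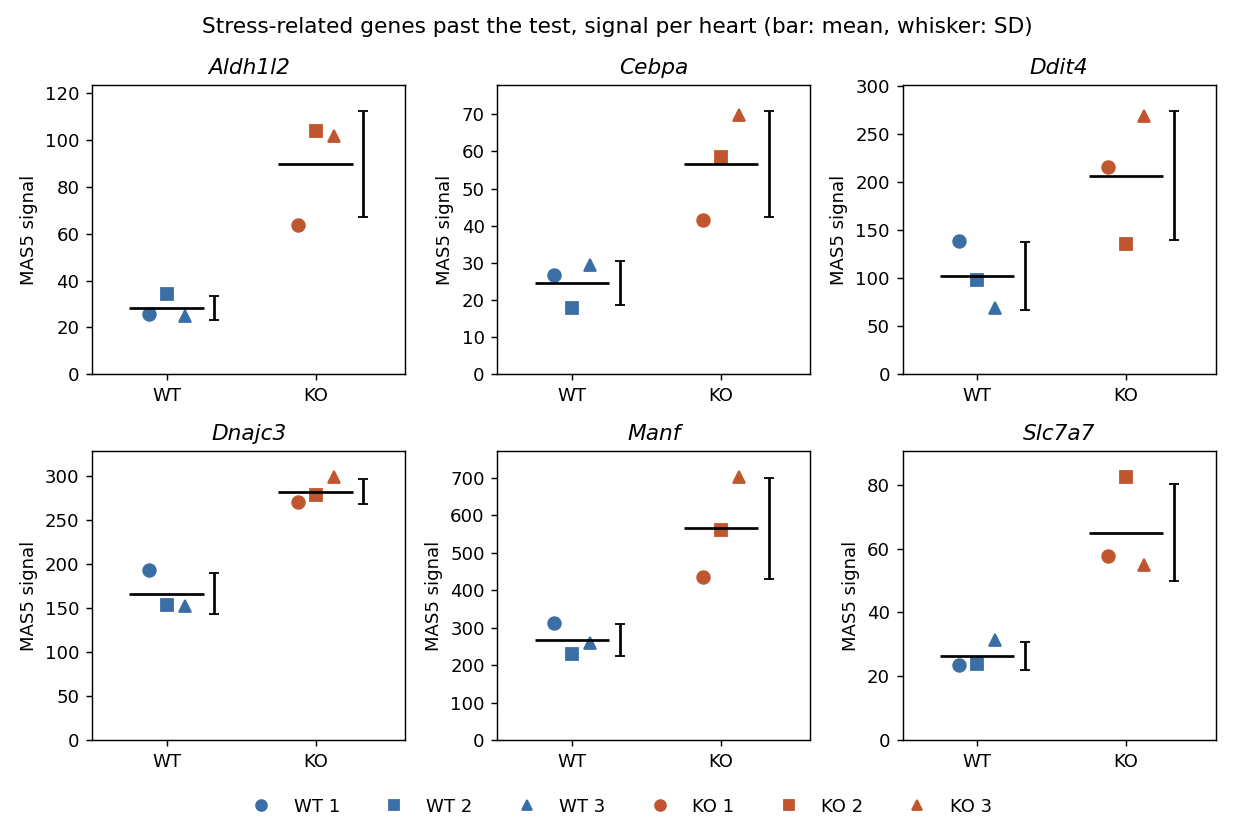
MAS5 signal (linear scale, from 0) of the 6 genes of the related lists that passed the test, in each of 3 WT hearts (blue) and 3 libraries labelled KO (orange); bars are means and whiskers the SD over 3 hearts. Aldh1l2, Cebpa, Dnajc3, Manf and Slc7a7 separate by group, and Ddit4 overlaps, with KO 2 at 135.2 and WT 1 at 138.8.

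Of these 6 genes, 3 did not pass without WT 1 (limma adjusted p of 0.0588 for Ddit4, 0.0824 for Cebpa and 0.0557 for Slc7a7), and 2 did not without KO 3 (0.066 for Cebpa and 0.0516 for Dnajc3). Without KO 1 all 6 passed. In a fit over all probe sets, without the filter and with every probe set counted in the adjustment, Aldh1l2 passed (limma adjusted p = 0.0411), and Manf (0.0526), Dnajc3 (0.0741), Slc7a7 (0.117), Cebpa (0.212) and Ddit4 (0.249) did not. Receptors for the hormones FGF21 and GDF15 showed 0 of 5 genes past the test. Fgfr1 was at 0.30 (limma adjusted p = 0.505) and Fgfr4 at -0.27 (0.673), and Klb, the coreceptor that FGF21 needs, was below the filter at 10.2 or less in every heart.

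Some markers of other cell types moved with the groups: the atrial, the fibroblast and part of the adipocyte markers. Their part in these results was not tested. All 6 atrial myocyte markers rose, against 1.78% of all genes. Their summed signal was 2921.5 to 9570.2 among WT hearts against 13559.5 to 16181.9 in the libraries labelled KO. Sln was at 2.28, Myl4 at 1.68 and Nppa at 1.45. Of 6 adipocyte markers 4 rose, against the same 1.78% of all genes. Their summed signal, most of it from Fabp4, was 3587.3 to 4373.8 among WT hearts against 3753.4 to 4555.6 in KO. Adipoq gave 54 in KO 1 and 390.7 and 323 in KO 2 and KO 3, against 22.3 or less in WT. Of the 6 genes that passed in the related lists, Aldh1l2, Cebpa, Manf and Dnajc3 were lowest in KO 1 among the libraries labelled KO. For Dnajc3 the gap was narrow, at 269.8 in KO 1 against 277.8 and 298.2 in KO 2 and KO 3. Slc7a7 and Ddit4 were not lowest there, and the share of all genes lowest in KO 1 was not counted. The adipocyte markers Cidec (0.79), Retn (0.88) and Ucp1 (1.00) passed as higher as well. Ucp1 was at 1.8 or less in every WT heart and passed the filter on dim probe sets only through its KO signals of 16.7, 49.5 and 2.7. Retn and Ucp1 did not pass under quantile, median or loess scaling (limma adjusted p of 0.0808 to 0.108 and 0.142 to 0.179) or without KO 2 (0.39 and 0.639). Cidea, a lipid droplet gene, gave 297.6, 230.6 and 257.8 among WT hearts against 187.3, 216.2 and 118.7 among KO 1 to 3, without overlap and in the opposite direction (-0.58, limma adjusted p = 0.0648). Of 8 fibroblast markers 1 rose, Col3a1 (0.49), and all 8 lay above WT in every library labelled KO, against 6.81% of all genes. Their summed signal was 5852.4 to 7064.7 among WT hearts against 7794 to 9394.6 in KO, with Col1a2 at 0.49 and Lum at 0.43. The leukocyte and proliferating cell markers each had 0 of 7 past the test, with summed signals of 1518.2 to 2310.2 against 1702 to 2460.9 and of 521.2 to 657.9 against 550.2 to 602.2. Cd14 was at 0.40, Lyz2 at 0.30, Ptprc at 0.34, Rrm2 at -0.38, Mki67 at 0.31 and Mcm2 at -0.25, and Ptprc passed without KO 1 (0.73, limma adjusted p = 0.0162). The cardiomyocyte markers had 0 of 9 past the test and summed to 61347.6 to 67994.8 among WT hearts against 58586.9 to 61965.4 in KO, with Myl3 at -0.13, Ryr2 at -0.18 and Myl2 at -0.096. No tested marker was listed at 0 in any heart.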

How the data were processed

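Each heart was hybridised to its own array, and the authors deposited, for every probe set, a linear signal intensity made with MAS5, as the submitters' processing notes name it; its version and scaling target were not stated in the labels, and detection calls were not used here. The chip type in the 1 array header used here is Mouse430_2; a comment there numbers WT 1 as another WT mouse than its title, and the title was used. Of 45099 probe sets, 62 controls were left out, 34958 have 1 symbol in the platform table, 932 several and 9160 none; unnamed ones were not used. The log2 of signal plus 16 was taken without further scaling. Probe sets at or above the 40th percentile of mean level (a signal of 8.17) were kept, and the brightest of each gene stood for it, leaving 12946 genes. The test was limma 3.58.1 under R 4.3.3 (lmFit, then eBayes with its trend option), two-sided, and p-values were adjusted by Benjamini-Hochberg over all genes; with 45.6 prior degrees of freedom, the variance shared between genes outweighs a gene's own spread. The fit was tested on simulated data. The p-values therefore rest mostly on that shared variance and only in part on a gene's own spread between these hearts. The number of arrays limits precision. Replicate numbers do not pair the hearts: deviations of equal numbers correlated at 0.027, -0.016 and 0.029.

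The members and lists were chosen with earlier results of these data known. Named are all members and Esrra; in each list the genes past the test, or else the 2 of smallest p; up to 3 markers of smallest p per cell type; and close relatives of the members. Hspa5, Aldh1l1, Aars, Eprs, Cidea, Cidec, Klb, Slc7a11, Fabp4, Myh6 and Tnnt2 were named outside that rule. Promoter sequences are from RefSeq, GRCm38.p6; all 10 genes matched. Other pseudocounts, scalings, filters, probe set rules, weights per array, variance models, the replicate number as a block and omission of each heart were tried.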

Additional observations from a re-analysis of the deposited data

How the results depend on the processing

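With KO against WT, 231 genes passed as higher and 153 as lower, and 48 and 18 with no filter, 114 and 57 with no trend, and 434 higher with array weights; leaving out single hearts gave 105 to 301 higher and 22 to 208 lower. The count of stress response genes past the threshold, 0 in either direction, became 1 lower (Chac1) with the filter at the 60th percentile, robust variance or the replicate block, and 1 higher (Ddit3) with array weights; leaving out single hearts gave 0 to 1 lower and 0 higher. With the replicate block 237 genes were higher and 175 lower. Esrra, at -2.58, did not pass with robust variance (-2.58, limma adjusted p = 0.307) or without WT 1 (0.0675), and ran from -3.39 to -2.12 when single hearts were left out. With no filter, Ddit4, Cebpa, Slc7a7 and Dnajc3 did not pass (limma adjusted p of 0.169, 0.142, 0.084 and 0.051), nor did Ddit4 with no trend (0.0607) or Dnajc3 as the mean of its probe sets (0.181). Over the 20 settings, genes that passed as higher numbered 0 to 4 for the ATF4 partners, 1 to 2 for serine and one-carbon synthesis, 0 to 2 for the transporters, 1 to 6 for the endoplasmic reticulum list, 1 to 6 for the atrial, 0 to 4 for the adipocyte and 0 to 4 for the fibroblast markers. Over the genes named by the rule above, other than Esrra and Fgf21, 1021 values were recomputed. The genes named outside that rule were not among them. Of the 1021 values 939 kept their direction and side of the threshold. A call was lost in 42 and gained in 21, 19 changed sign without a call and 0 reversed a call. Most of these genes had no call to lose. The causes were not tested.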
